A study of Mus musculus with 24 samples.

Results

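The caveolae genes are Cav1, Cav2, Cav3, Cavin1 (also named Ptrf), Ehd2, Pacsin2 and Pacsin3, 7 of the 18539 genes to which a probe of the array could be matched. They were chosen by name as structural components of caveolae, through the transcript accession of each probe, and 13 probes matched them. For each gene the brightest probe was taken, and the other probes are described where they differ from it. The arrays profiled live CD105+/CD45- cells sorted from the aorta or from the leg skeletal muscle of male mice, the sort used for endothelium. Mice were wild-type C57BL/6J (WT) or galectin-3 knockout B6.Cg-Lgals3tm1Poi/J (KO), and from 8 weeks of age were fed for 8 weeks either a high-fat diet (HFD, 60% of calories from fat) or standard chow (12%). The 8 groups of tissue, strain and diet had 3 arrays each, 1 from each of 3 experiments, and every array was a pool of mice. KO mice lack Lgals3 in all tissues, not in endothelium alone, and the aortic and muscle cells of a pool came from the same animals.

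Caveolae are flask-shaped pits of the plasma membrane, dense in endothelium, adipocytes and muscle. Caveolin-1 builds the coat outside striated muscle, caveolin-2 joins it in the same oligomers, and caveolin-3 is the paralog of striated muscle. Cavin-1 forms the outer coat without which caveolae are not stable, EHD2 is an ATPase that holds the neck of the pit at the membrane, and pacsins (syndapins) are membrane-bending F-BAR proteins, of which pacsin-2 is widely expressed and pacsin-3 is best known from muscle.

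The promoters of the 3 caveolins are shown because the difference between the tissues had the opposite sign for Cav3 and for the other 2. The sequences are from RefSeq (build GRCm38.p6), run from 250 bases before to 50 bases after the annotated start, and are all on the plus strand of chromosome 6. All 7 genes matched the promoter table, with 12 annotated starts between them, and the first start listed for Cav1 is shown. Capitals mark matches on either strand to 4 short motifs. The GC box was searched as GGGCGG. The E-box, read by basic helix-loop-helix factors, was searched as CAGCTG. The TATA box was searched as TATAAA, and the last motif, which is named by its own letters, as CCAAT. Overlapping matches run together.

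Cav1, chr6:17306085-17306384: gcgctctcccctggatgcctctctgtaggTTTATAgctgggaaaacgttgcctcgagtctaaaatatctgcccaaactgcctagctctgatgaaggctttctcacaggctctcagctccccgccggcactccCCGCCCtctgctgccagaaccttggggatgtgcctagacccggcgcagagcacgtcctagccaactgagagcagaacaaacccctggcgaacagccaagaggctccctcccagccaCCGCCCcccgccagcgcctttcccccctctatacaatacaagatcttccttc
Cav2, chr6:17280935-17281234: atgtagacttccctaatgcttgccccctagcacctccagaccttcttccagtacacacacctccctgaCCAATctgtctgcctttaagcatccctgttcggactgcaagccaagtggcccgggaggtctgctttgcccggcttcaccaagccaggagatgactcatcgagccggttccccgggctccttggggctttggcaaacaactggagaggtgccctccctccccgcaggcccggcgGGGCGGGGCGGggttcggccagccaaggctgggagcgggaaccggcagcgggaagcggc
Cav3, chr6:112459255-112459554: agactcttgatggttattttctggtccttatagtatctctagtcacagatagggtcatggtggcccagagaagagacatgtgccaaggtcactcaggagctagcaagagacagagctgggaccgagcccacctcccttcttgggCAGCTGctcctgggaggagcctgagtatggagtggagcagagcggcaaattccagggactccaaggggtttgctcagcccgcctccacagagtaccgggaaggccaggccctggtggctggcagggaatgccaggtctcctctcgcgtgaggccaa

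The Cav1 window held 2 GC boxes and 1 TATA box on the reverse strand, and the Cav2 window held 2 overlapping GC boxes and 1 CCAAT box. The Cav3 window held 1 E-box and no GC box. Of 32851 promoter windows of the same length, 35.7% held a GC box, 16.3% this E-box, 13.6% this TATA box and 37.4% a CCAAT box. Cav1 and Cav2 are neighbors on the chromosome, and Cav3 lies far from both.

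Array signals are given as log2 of the processed signal over the 75th percentile of that array, so that 0 is the signal of the probe at that percentile and a difference of 1 is a 2-fold difference. A probe was tested in a tissue where it lay well above background on all arrays of at least 1 group there. An adjusted p is from limma with the Benjamini-Hochberg method over all probes tested, and a difference with an adjusted p under 0.05 is called. The brightest probe of each of the 7 genes was well above background on 24 of 24 arrays, and no spot on any array was marked saturated. Levels of different genes are not compared with each other, since each probe binds with its own strength.

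The Lgals3 probe does not separate the strains in the direction of a deletion. Its log2 signal was higher in the library labelled KO than in the matching library labelled WT in 11 of 12 pairs, by 1.28 ± 1.19 on average (SD, n = 12). The methods describe array probes placed toward the 3′ end of transcripts and a deletion of early exons that was checked on DNA, RNA and protein of the mice. The place of this probe in the transcript was not analysed here, and a probe outside the deleted part checks nothing. All 14 endothelial marker genes were well above background on all 24 arrays, with a mean log2 signal of 2.32 to 4.31 in the aorta and 4.49 to 4.91 in muscle. Markers of other cells were present too. The 8 fibroblast genes averaged 4.04 to 5.69 in the aorta and -0.74 to 3.06 in muscle, and 14 skeletal muscle fiber genes averaged -4.90 to -1.89 in the aorta and 0.16 to 3.12 in muscle. In such pools, fewer cells of a type and less RNA per cell cannot be told apart.

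**Figure D1:**
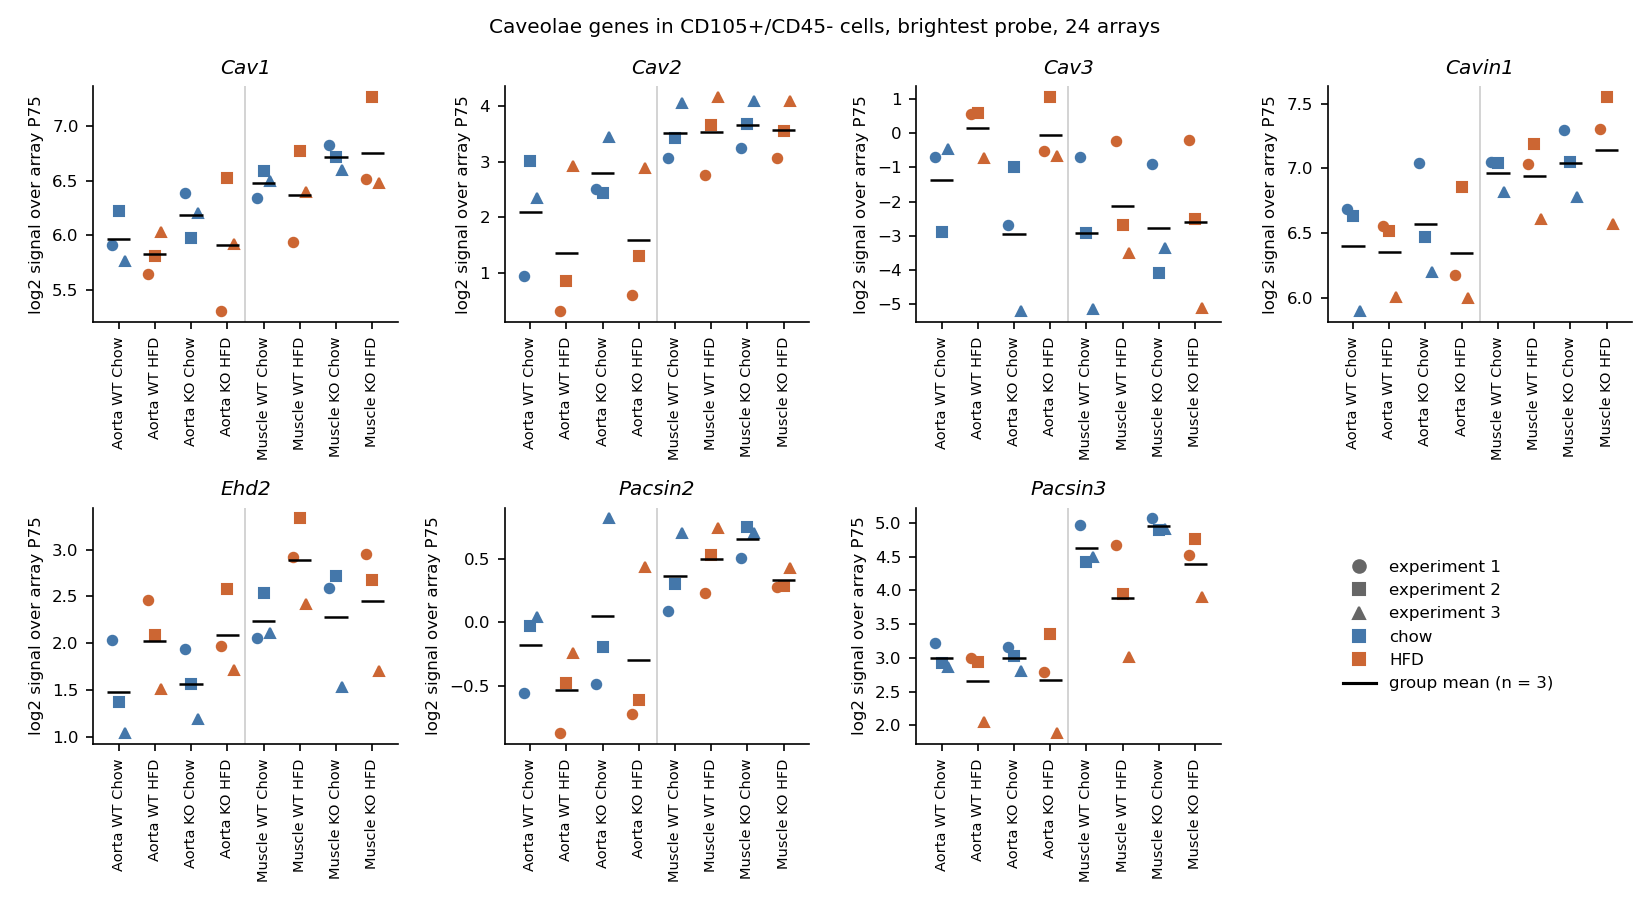
Log2 signal over the array's 75th percentile (vertical axis of each panel) of the brightest probe of each caveolae gene in the 8 groups. Symbols are the 3 experiments, blue is chow, orange is HFD, and the black bar is the mean of a group (n = 3). For Cav3 the 12 aortic arrays run from -5.21 to 1.06, and in muscle the arrays of experiment 1 lie above those of experiments 2 and 3.

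On their brightest probes, the coat genes Cav1 and Cavin1 had steadier levels than most probes, and Cav3 was the least steady of the 7 genes. For Cav1 the pooled SD within groups was 0.36 in the aorta and 0.32 in muscle, against a median over all probes tested of 0.57 and 0.47. For Cavin1 it was 0.41 and 0.33. The second Cav1 probe had an SD of 0.68 in the aorta, larger than that of 62.4% of probes, and 0.44 in muscle. The other Cavin1 probes had SDs of 0.65 and 1.67 where tested in the aorta, and 0.31, 0.78 and 1.11 in muscle. Probes of like brightness were not compared. Pacsin2 had an SD of 0.52 in the aorta and 0.22 in muscle. Cav3 had an SD of 1.40 in the aorta and 2.04 in muscle, larger than that of 93.7% and 99.2% of probes.

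The order of the group means for Cav1 ran from WT HFD aorta (5.83 ± 0.19, SD, n = 3) through KO HFD aorta (5.92 ± 0.61), WT chow aorta (5.97 ± 0.23) and KO chow aorta (6.19 ± 0.20) to WT HFD muscle (6.37 ± 0.42), WT chow muscle (6.48 ± 0.12), KO chow muscle (6.72 ± 0.11) and KO HFD muscle (6.76 ± 0.45). All 4 aortic groups stood below all 4 muscle groups, while the step between neighbors was smaller than the larger SD of the pair, except that between WT chow and KO chow muscle (6.48 and 6.72). Cav2 and Cavin1 had the same split by tissue, with group means of 1.37 to 2.79 in the aorta and 3.51 to 3.66 in muscle for Cav2, and 6.34 to 6.57 and 6.94 to 7.14 for Cavin1. For Cav3 the groups did not split by tissue. Its highest means were WT HFD aorta (0.14 ± 0.75) and KO HFD aorta (-0.04 ± 0.96), its lowest was KO chow aorta (-2.95 ± 2.13), and the 4 muscle groups lay between -2.91 and -2.13 with SDs of 1.67 to 2.46.

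Comparing aorta with muscle, the caveolae transcripts other than Cav3 were lower in aortic cells. Of the 7 genes, 6 were called, all 6 lower in the aorta, beside 46.2% of all 27344 probes tested, 30.2% called lower and 16% called higher in the aorta. The median difference over the 7 genes was -0.67 on the log2 scale, and that over all probes was -0.27. The endothelial markers were lower in the aorta too, 13 of 14 called, with a median difference of -1.11. The part of the endothelial content of the pools in these values was not tested. Each slide held 1 tissue, so that a difference between tissues is also one between slides.

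Cav2 and Pacsin3 differed most. The lowest, median and highest log2 signals of Cav2 were 0.31, 2.39 and 3.44 in the aorta and 2.76, 3.60 and 4.16 in muscle. Only the brightest aortic arrays reached the muscle range. The difference was -1.60 ± 0.33 (SE; 3.04-fold lower in the aorta; limma adjusted p = 6.7e-04), with the aorta lower in 12 of 12 pools. Pacsin3 ran 1.89, 2.93 and 3.36 in the aorta and 3.01, 4.60 and 5.07 in muscle. Its difference was -1.63 ± 0.20 (3.10-fold lower; limma adjusted p = 2.4e-06), again in 12 of 12 pools.

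Cav1, Cavin1, Ehd2 and Pacsin2 had smaller differences. Cav1 was 5.30, 5.95 and 6.53 in the aorta and 5.94, 6.55 and 7.27 in muscle, a difference of -0.61 ± 0.15 (SE; limma adjusted p = 0.0028). Cavin1 was 5.89, 6.49 and 7.04 in the aorta and 6.57, 7.04 and 7.56 in muscle, a difference of -0.61 ± 0.16 (limma adjusted p = 0.0049). The tissues overlapped for both genes, but within every one of the 12 pools the aorta was lower. Ehd2 differed by -0.67 ± 0.20 (limma adjusted p = 0.011) and was lower in 11 of 12 pools, and Pacsin2 by -0.70 ± 0.17 (limma adjusted p = 0.0024) and was lower in 10 of 12. The share of all probes that were lower in the aorta in all 12 pools was 13.7%. None of the 7 genes had aortic and muscle arrays that did not overlap, as 2.1% of probes did with the aorta lower and 3.54% with the aorta higher.

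Relative to the median of all probes, Cav1 was lower in the aorta by -0.33, Cavin1 by -0.33, Ehd2 by -0.40, Pacsin2 by -0.43, Cav2 by -1.33 and Pacsin3 by -1.36. After quantile normalization this was -0.12 for Cav1 and -0.08 for Cavin1. For Ehd2, Pacsin2, Cav2 and Pacsin3 it was -0.40, -0.47, -1.26 and -1.28. Cav1 and Cavin1 were still called there, at differences of -0.34 and -0.30 (limma adjusted p = 0.047 and 0.0092). In the deposited log2 table, in which the median probe differed by -0.01, Cav1 (-0.34; limma adjusted p = 0.081), Cavin1 (-0.34; 0.11) and Ehd2 (-0.41; 0.13) were not called, while Cav2, Pacsin2 and Pacsin3 were. That table moved the share of calls that were higher in the aorta from 34.6% to 58.9%. Without experiment 1, Cavin1 (limma adjusted p = 0.055), Ehd2 (0.053) and Pacsin2 (0.054) were not called, and without experiment 2 the same genes (0.052, 0.16 and 0.078) were not.

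**Figure D2:**
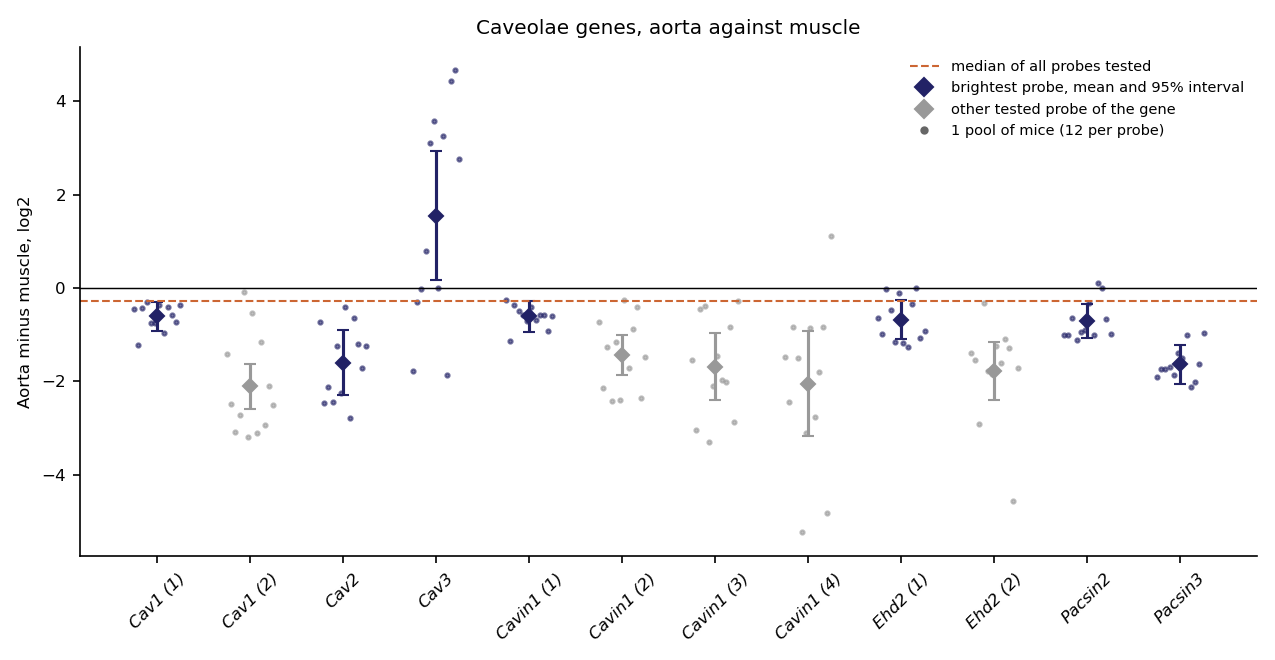
Difference between aorta and muscle on the log2 scale (vertical axis) for every tested probe of the caveolae genes. Small dots are the 12 pools of mice, diamonds the limma mean with its 95% interval, dark for the brightest probe and gray for the others, and the dashed line is the median of all probes (-0.27). All probes except that of Cav3 have a mean below 0, and the dimmer probes of Cav1, Cavin1 and Ehd2 differ by more than the brightest ones.

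The dimmer probes gave larger tissue differences. The second Cav1 probe differed by -2.11 ± 0.23 (SE; 4.30-fold lower in the aorta; limma adjusted p = 6.8e-07), against -0.61 for the brightest. The other Cavin1 probes differed by -1.43, -1.68 and -2.05, and the second Ehd2 probe by -1.77, and each of these was called. Some of them were not well above background on all arrays (6 to 12 of 12 aortic arrays). A second Pacsin2 probe was well above background on 2 of 24 arrays and was not tested.

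Cav3 went the other way. Its log2 signal was -5.21, -0.69 and 1.06 (lowest, median and highest) in the aorta and -5.13, -2.79 and -0.21 in muscle. The difference was 1.56 ± 0.66 higher in the aorta (SE; 2.94-fold) and was not called (limma adjusted p = 0.062), with the aorta higher in 8 of 12 pools. By experiment it was -0.32 ± 1.07, 2.48 ± 1.66 and 2.51 ± 3.03 (SD, n = 4 each). Without experiment 1 it was 2.49 and was called (limma adjusted p = 0.020), and it was called as well after normexp background correction (1.42; 0.041), in the deposited log2 table (1.82; 0.038) and among probes well above background on every array (1.56; 0.048).

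In muscle, the Cav3 signal differed by experiment. Each experiment was 1 slide there, and experiment 1 was scanned on another date than experiments 2 and 3. Experiment, slide and scan date cannot be told apart. It was -0.89 to -0.21 on the 4 arrays of experiment 1, -4.09 to -2.51 in experiment 2 and -5.13 to -3.35 in experiment 3, and experiment 1 lay above experiment 2 without overlap, as it did for 5.21% of muscle probes. The mean of the skeletal muscle fiber genes was 2.49 to 3.12 on the arrays of experiment 1 and 0.16 to 1.85 on those of the other 2, and the fibroblast mean was 1.35 to 3.06 against -0.74 to 1.41. In the aorta, where the fiber mean was -4.90 to -1.89, Cav3 reached its highest values. The mean of 8 cardiac muscle genes was -3.68 to -0.45 in the aorta and -5.34 to -3.48 in muscle. Of the 6 cardiac genes tested between the tissues, 5 were called higher in the aorta, beside 16% of all probes. The part of these cells in the Cav3 signal was not tested.

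**Figure D3:**
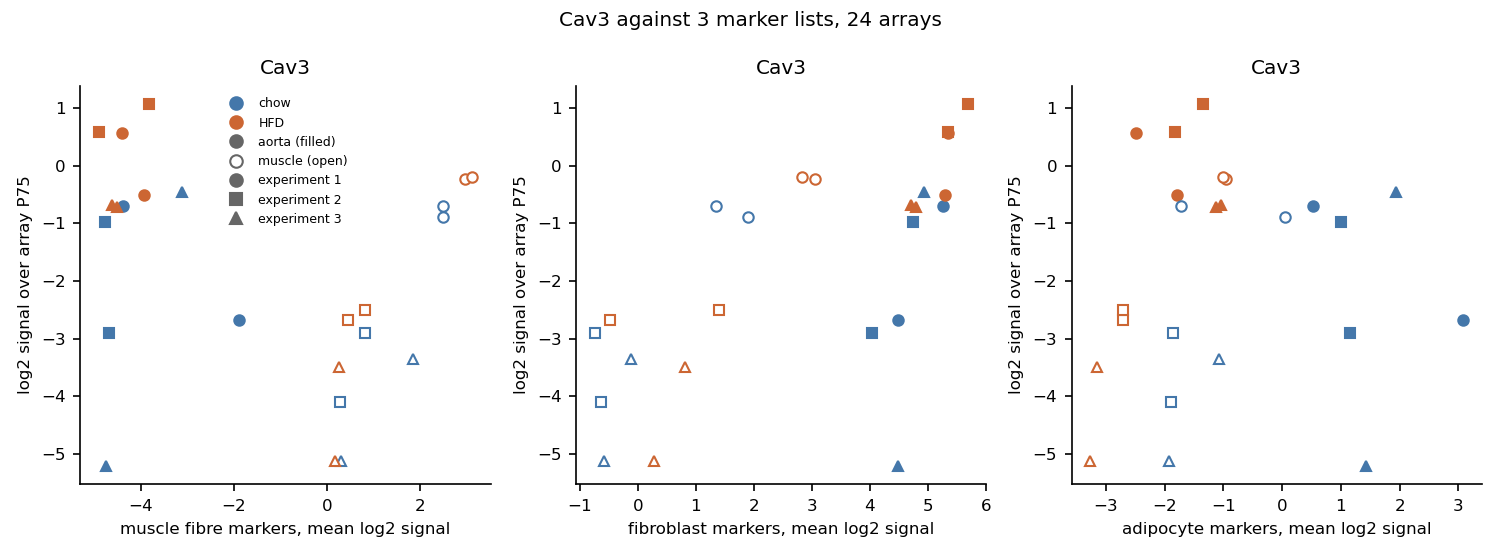
Log2 signal of Cav3 (vertical axis) against the mean log2 signal of the skeletal muscle fiber, fibroblast and adipocyte marker genes (horizontal axes) on 24 arrays. Filled symbols are aorta, open symbols muscle, and shapes are the 3 experiments. In muscle, the arrays of experiment 1 are highest for Cav3 and for the fiber genes, while aortic arrays with fiber means of -3.82 or lower span almost the whole Cav3 range.

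Within single conditions the tissue calls were fewer. Pacsin3 was lower in the aorta in each of the 4 conditions, by -1.22 to -1.96, and was called in all 4. On HFD, Cav2 was called in WT (-2.16; limma adjusted p = 0.031) and in KO (-1.97; 0.049), and on chow it was not (-1.41 and -0.87; limma adjusted p = 0.16 and 0.50). Pacsin2 was called only in WT HFD (-1.03; limma adjusted p = 0.043). These gave 1, 3, 1 and 2 genes of 7 called in WT chow, WT HFD, KO chow and KO HFD, beside 15.5%, 16.7%, 6.4% and 16.4% of all probes. With a block for the pool of mice, since both tissues came from the same animals, the counts were 2, 4, 1 and 4, and 6 for the mean of the conditions. Without experiment 1 or without experiment 2 no gene was called in any single condition.

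High-fat feeding was compared with chow within each strain and experiment. No caveolae gene was called in the aorta or in muscle, in WT, in KO or in the mean of both strains, beside 8 of 25856 aortic probes (0.0309%) and 74 of 25675 muscle probes (0.288%) for the mean, 0% for each strain in the aorta, and 0% for WT and 0.00389% for KO in muscle. At an unadjusted p under 0.05, 3 of the 7 genes passed in the aorta (Cav3 and Ehd2 higher, Cav2 lower) beside 15.1% of probes (8.45% higher, 6.68% lower), and 2 in muscle (Ehd2 higher, Pacsin3 lower) beside 16.4% (7.28% higher, 9.09% lower). In single strains 0 genes passed for WT and 1 for KO in the aorta, beside 5.77% and 11.3% of probes, and 2 for WT and 0 for KO in muscle, beside 12.1% and 8.5%. The methods' t-test, run on the 3 ratios of a strain, found no probe after Benjamini-Hochberg adjustment in either tissue. At its unadjusted threshold it passed 2 of the 7 genes for WT and 1 for KO in the aorta (1218 and 1736 of all probes), and 0 for WT and 1 for KO in muscle (2118 and 1287). At that threshold the strains' responses differed for 0 of the genes in the aorta (560 probes) and 1 in muscle (937), which was Pacsin2.

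**Figure D4:**
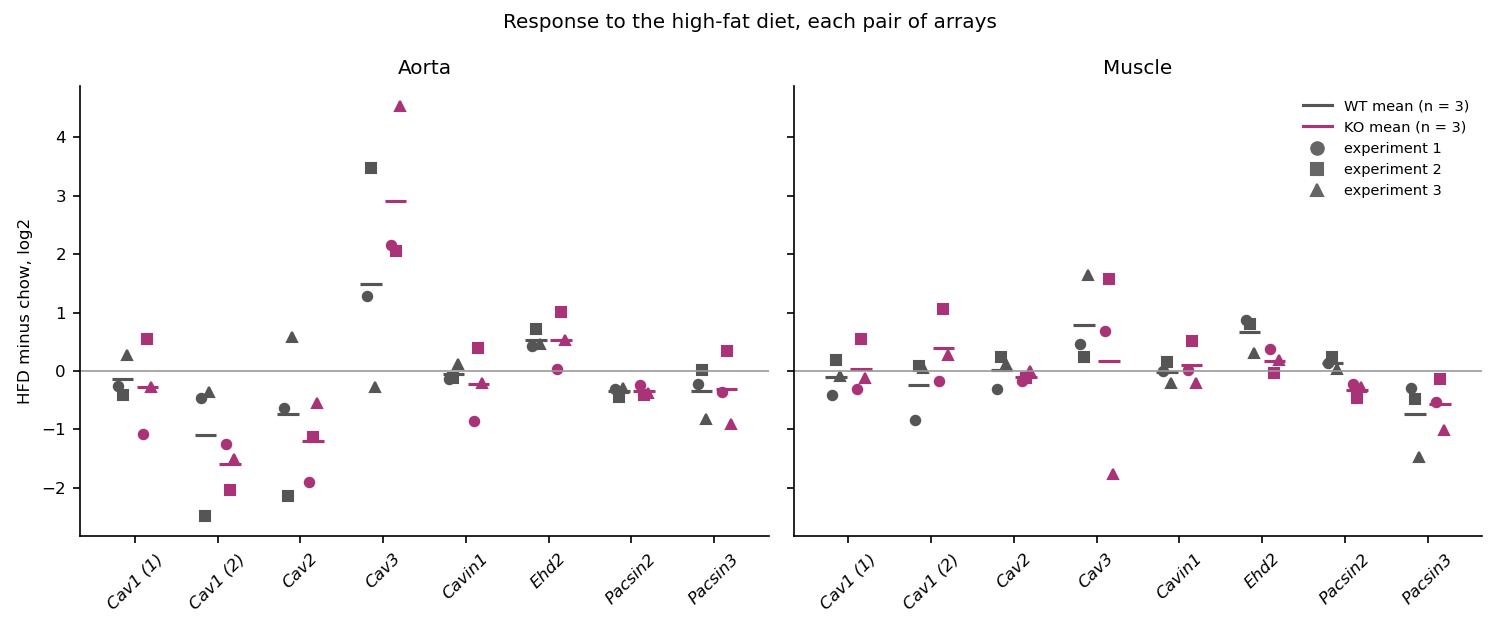
HFD minus chow on the log2 scale (vertical axis) for each pair of arrays from 1 strain and experiment, with the mean of each strain (n = 3) as a bar, gray for WT and purple for KO. Cav1 is shown for its brightest probe (1) and its second probe (2). In the aorta Cav3 is higher on HFD in 5 of 6 pairs and the second Cav1 probe lower in 6 of 6, and in muscle most points lie near 0.

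Cav3 had the largest aortic difference. In WT aorta its log2 signal in experiments 1, 2 and 3 was -0.71, -2.90 and -0.46 on chow and 0.57, 0.58 and -0.72 on HFD. In KO aorta it was -2.67, -0.98 and -5.21 on chow and -0.51, 1.06 and -0.68 on HFD. The HFD arrays lay close together and the chow arrays wide apart, with 2 chow arrays inside the HFD range. The mean difference over both strains was 2.20 ± 0.55 (SE; 4.61-fold), higher on HFD in 5 of 6 pairs and an adjusted p = 0.20 by limma. Cav3 was singled out by the study on these same arrays, so its direction here is not independent evidence. The study also measured Cav3 by qPCR on amplified RNA of the sorted cells, which was not examined here. In muscle the difference was 0.47 ± 1.24 (SD, n = 6 pairs), and the aortic response exceeded the muscle response by 1.73 ± 0.78 (SE), which was not called (limma adjusted p = 0.53). For that difference between tissues 0% of probes were called and 9.25% passed the unadjusted threshold, Cav3 among them.

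On the same aortic arrays the fibroblast mean was higher on HFD than on chow in 5 of 6 pairs, by 0.54 ± 0.57 (SD), the mean of 10 smooth muscle genes was higher in 5 of 6, by 0.37 ± 0.32, and the adipocyte mean was lower in 6 of 6, by -3.13 ± 0.91. The chow arrays with the lowest Cav3 signal (-5.21, -2.90 and -2.67) had fibroblast means of 4.49, 4.04 and 4.49, the lowest of the aorta. The part of these cells in the difference was not tested.

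For Cav1 the answer depended on the probe. The brightest probe differed between HFD and chow by -0.20 ± 0.26 in the aorta (SE; 95% interval -0.81 to 0.41; limma adjusted p = 0.74), with 4 of 6 pairs lower. The second probe read -1.54, 0.57 and -0.48 in WT chow aorta (experiments 1 to 3) and -2.0, -1.92 and -0.84 in WT HFD aorta. In KO mice it read -0.59, 0.40 and 0.19 in KO chow aorta and -1.85, -1.65 and -1.33 in KO HFD aorta. It was lower on HFD in 6 of 6 pairs, as were 4.55% of all aortic probes, and the 3 KO HFD arrays lay below the 3 KO chow arrays, as they did for 6.93% of aortic probes. The mean difference was -1.35 ± 0.32 (SE; 2.55-fold lower) with an adjusted p = 0.20 by limma, and leaving out 1 experiment gave -0.90 (without experiment 2) to -1.60 (without experiment 1). In muscle the second probe differed by 0.08 ± 0.62 (SD, n = 6 pairs), and the difference between the tissues' responses was -1.43 ± 0.41 (SE; limma adjusted p = 0.33).

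Cav2 encodes the partner of caveolin-1 in the coat. It read 0.95, 3.01 and 2.34 in WT chow aorta and 0.31, 0.86 and 2.93 in WT HFD aorta, and 2.51, 2.43 and 3.44 in KO chow aorta and 0.61, 1.30 and 2.88 in KO HFD aorta. HFD was lower in 5 of 6 pairs, with WT of experiment 3 the exception. The mean difference was -0.96 ± 0.38 (SE; 1.95-fold lower) with an adjusted p = 0.31 by limma. Leaving out 1 experiment gave -0.63 (without experiment 2) to -1.45 (without experiment 3). In muscle Cav2 differed by -0.04 ± 0.20 (SD, n = 6 pairs).

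The endothelial marker mean was lower on HFD in 5 of 6 aortic pairs, by -0.71 ± 0.81 (SD), and the exception was also WT of experiment 3. In muscle it differed by -0.09 ± 0.06. Of the 14 endothelial genes 14 were below 0 and 0 were called by limma for the mean aortic response, 5 of them at an unadjusted p under 0.05. Of all aortic probes, 48.9% were below 0, 0.0309% were called and 15.1% passed the unadjusted threshold (6.68% lower). The part of the endothelial content of the pools in the Cav1 and Cav2 values was not tested.

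**Figure D5:**
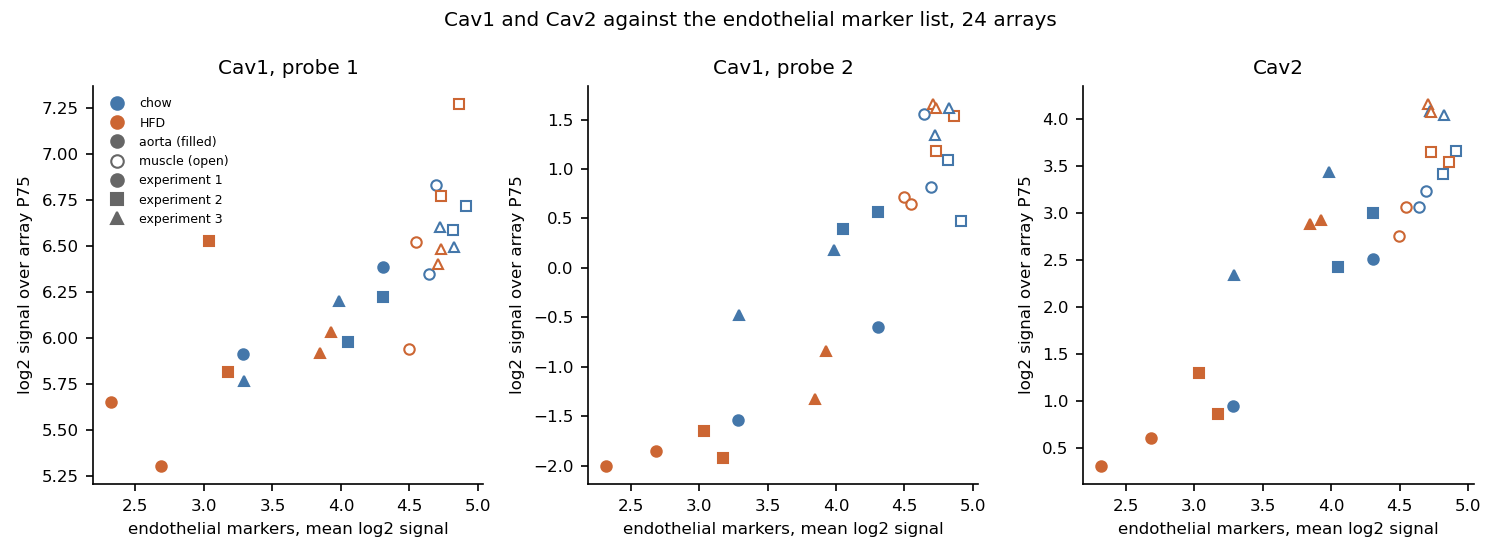
Log2 signal of the brightest Cav1 probe (1), the second Cav1 probe (2) and Cav2 (vertical axes) against the mean log2 signal of 14 endothelial marker genes (horizontal axes) on 24 arrays. Filled symbols are aorta, open symbols muscle, blue chow and orange HFD. The aortic HFD arrays of experiments 1 and 2 have endothelial means of 2.32 to 3.17 and the 4 lowest signals of the second Cav1 probe, with Cav2 at 0.31 to 1.30.

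Cavin1, the coat protein, differed by -0.14 ± 0.21 on HFD in the aorta (SE; 95% interval -0.65 to 0.38) and by 0.04 ± 0.27 in muscle (SD, n = 6 pairs). Ehd2 was higher on HFD in 6 of 6 aortic pairs, as were 5.85% of probes, and in 5 of 6 muscle pairs. In the aorta it read 2.04, 1.37 and 1.04 in WT chow and 2.46, 2.08 and 1.51 in WT HFD, and 1.94, 1.57 and 1.18 in KO chow and 1.96, 2.58 and 1.72 in KO HFD. Within each experiment the HFD array was the higher, while the ranges of the diets overlapped. The mean difference was 0.53 ± 0.20 in the aorta (SE; limma adjusted p = 0.29) and 0.41 in muscle. The second Ehd2 probe gave 0.54 in the aorta and -0.24 in muscle.

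Among the 7 genes Pacsin2 had the smallest spread of aortic ratios. It was lower on HFD in 6 of 6 pairs, as were 4.55% of aortic probes. The difference was -0.35 ± 0.09 in WT and -0.35 ± 0.09 in KO (SD, n = 3 each). The limma fit over both strains gave an adjusted p = 0.37. In muscle the signs differed between strains. HFD was higher in 3 of 3 WT pairs, by 0.13 ± 0.10, and lower in 3 of 3 KO pairs, by -0.32 ± 0.12 (SD). The exact permutation test of the 2 strains' ratios gave p = 0.1, the smallest that 3 against 3 allows, and the limma fit gave an adjusted p = 0.999 for the difference. The methods' t-test of that difference passed its unadjusted threshold. The share of all probes with such a split was not counted. Pacsin3 was lower on HFD in 6 of 6 muscle pairs, as were 5.73% of probes (5.63% were higher in 6 of 6), by -0.65 ± 0.50 (SD; limma adjusted p = 0.22), and in 4 of 6 aortic pairs by -0.33 ± 0.48. Without experiment 3 these differences were -0.36 and -0.06, and without experiment 2 they were -0.83 and -0.58.

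After adjustment over all probes, the responses of the strains were not told apart for any caveolae gene. The largest difference between KO and WT responses was that of aortic Cav3, 1.42 larger in KO, with a 95% interval of -1.21 to 4.04 by limma. By limma 0% of probes were called for this difference in either tissue. Exact permutation of the strains gave p from 0.4 to 1 for the 7 genes in the aorta and from 0.1 to 0.8 in muscle, where 0.1 is the smallest possible.

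Between libraries labelled KO and WT on the same diet, no caveolae gene was called in either tissue, beside 3 of 25856 aortic probes (0.0116%) and 0 of 25675 muscle probes for the mean of the diets. On chow and on HFD alone, 0.0116% and 0.00387% of aortic probes and 0% of muscle probes were called. None of the 7 genes passed the unadjusted threshold of limma, beside 4.41% (chow), 1.15% (HFD) and 3.4% (mean) of aortic probes and 2.42%, 3.15% and 3.26% of muscle probes. In muscle, Cav1 was higher in the library labelled KO in 6 of 6 pairs, as were 3.49% of probes, by 0.31 ± 0.23 (SD), while the second Cav1 probe was lower in 5 of 6, by -0.23 ± 0.40. Pacsin3 was higher in 5 of 6 by 0.42 ± 0.40. In the aorta, Cav3 differed by -0.89 ± 2.31, with 3 of 6 pairs each way, and 2.55% of aortic probes were higher in the library labelled KO in 6 of 6.

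Deviations of Cav1 from its group means were compared with those of each other caveolae gene over the 12 arrays of a tissue, 12 relations in all. For the brightest Cav1 probe the largest Pearson correlation was with Cavin1, with Pearson's r = 0.48 (exact permutation p = 0.23) and Spearman's rho = 0.37 (p = 0.33) in the aorta and r = 0.52 (p = 0.30) and rho = 0.45 (p = 0.31) in muscle, all with adjusted p of 0.91 or more. In the aorta the largest rho was that with Cav2, 0.57 (exact permutation p = 0.11, adjusted 0.91). These values leave in what the arrays of a slide share. Without the 2 arrays farthest from the Cav1 median, r with Cavin1 was 0.27 and 0.53. With the mean of each slide removed as well, a test chosen after the values were seen, Cav1 and Cavin1 had r = 0.97 (permutation within slides, p = 2.9e-04, adjusted over 12 relations 0.0035) and rho = 0.94 (p = 2.9e-04, adjusted 0.0035) in the aorta. In muscle r was 0.80 (p = 0.029, adjusted 0.17) and rho was 0.76 (p = 0.045, adjusted 0.27). Without the 2 farthest arrays these r were 0.94 and 0.85. Removing the group and slide means left 6 residual degrees of freedom from the 12 arrays, with which a large r is easier to reach. No other relation of either Cav1 probe had an adjusted p under 0.05 in that test. The share of all probes that reach such an r with Cav1 was not counted. The value is therefore not shown to be particular to Cav1 and Cavin1. It also rests on the brightest Cav1 probe. With slide means removed, the second probe had r = -0.24 with Cavin1 in the aorta (permutation within slides, p = 0.65) and 0.39 in muscle (p = 0.33). Before that step these r were -0.41 and -0.49. The second Cav1 probe, added as an alternative after the data were seen, had its largest positive correlation with Cav2, with r = 0.79 (exact permutation p = 0.0085, adjusted 0.096) and rho = 0.77 (p = 0.019, adjusted 0.0625) in the aorta and r = 0.75 (p = 0.030, adjusted 0.096) and rho = 0.78 (p = 0.018, adjusted 0.0625) in muscle. Without the 2 farthest arrays r was 0.76 and 0.59, and with the slide means removed it was 0.73 and 0.41. With Ehd2 the second probe had r = -0.67 (exact permutation p = 0.064, adjusted 0.13) in the aorta and -0.76 (p = 0.034, adjusted 0.096) in muscle. In the aorta it had r = 0.55 with Pacsin2 (exact permutation p = 0.040, adjusted 0.096) and -0.54 with Pacsin3 (p = 0.017, adjusted 0.096).

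Over all 24 arrays, the genes whose log2 signal was most like that of Cav1 were Rbm3 (r = 0.963), Elovl5 (0.950), Ybx1 (0.948), Rras (0.948) and Ly6c1 (0.945), among 26753 probes. Those most like Cav3 were Cxcl14 (r = 0.888), Tmem121 (0.863), Ak1 (0.853), Aldh1a2 (0.852) and Syn1 (0.846). These correlations describe arrays that share tissue, slide and pool, and carry no test.

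Of 20 further genes of caveolae and their neighbors, 18 were tested in the comparison of tissues and 13 were called, 11 lower and 2 higher in the aorta, with a median of -0.71. Of all probes tested, 46.2% were called, 30.2% lower and 16% higher in the aorta, with a median of -0.27. The caveolar coat genes Cavin2 (-0.74 ± 0.11, SE; limma adjusted p = 3.0e-05) and Cavin3 (-0.36 ± 0.14; 0.042) were lower in the aorta. Cavin4, the muscle cavin, was called lower as well (limma adjusted p = 1.6e-04), with no size given because its aortic signal was mostly at background. Also lower in the aorta were Ehd1 (-0.98), the fission GTPase Dnm2 (-0.85), Dysf (-2.0), the endothelial nitric oxide synthase Nos3 (-1.54), the diaphragm protein Plvap (-0.70), the lipid handling genes Cd36 (-0.72) and Gpihbp1 (-0.93), and the insulin-responsive glucose transporter Slc2a4 (-1.46). Popdc2 (1.43 ± 0.41; 0.0083) and the kinase Src (1.21 ± 0.27; 0.0012) were higher. Cavin4 was well above background on 2 of 12 aortic and 10 of 12 muscle arrays. On HFD, 0 of 17 of these genes were called in the aorta and 0 of 18 in muscle, beside 0.0309% and 0.288% of all probes. At an unadjusted p under 0.05 by limma, 2 and 3 of them passed, beside 15.1% and 16.4% of all probes.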

How the data were processed

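Single-color Agilent Whole Mouse Genome arrays of amplified, Cy3-labelled RNA were used, 24 arrays from 8 groups. The deposited intensity values are scanner output, background-subtracted by Feature Extraction (10.5.1.1 per the file headers, 9.1 per the submitters' processing notes), and the deposited log2 table equals the log2 of that signal plus 1 constant for each array. From the processed signal, log2 was taken and the 75th percentile of the 43379 non-control spots of each array subtracted. Outlier spots were dropped and spots averaged to 41174 probes. Probes were tested where well above background on all arrays of at least 1 group and missing on at most 1 array. Array percentiles ran from 2390 to 5938, and 59.5% to 75.7% of spots were well above background; the number of arrays limits the precision.

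Diet effects were fitted with limma (3.58.1 in R 4.3.3) with a block for each strain and experiment, after the study's pairing by experiment. Paired arrays deviated from their group means with correlations of 0.01 to 0.46 over 12 pairs. Strain was fitted on 4 group means and tissue on 8. The methods describe the 3 experiments as biological replicates. Whether their extractions were run together is not stated, so p-values measure the spread between these samples. The study's methods give 3 mice for a pool and its design text 3 or 4. Each slide held the 4 groups of 1 tissue and experiment. The test scripts were checked on simulated data. The caveolae genes, the further gene lists and the tests were chosen with earlier results of these data known. Named were all 7 genes, every further gene called, Lgals3, the 5 genes most like Cav1 and Cav3, and, after its values were seen, Ucp1.

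Alternatives were normexp background correction (offset 50, on the median signal), quantile normalization, the deposited table, 2 other filters, each experiment left out, the mean of all probes of a gene, other blocks, slide as a random block, and the methods' t-test. Comparing the tissues' diet responses, the use of other probes and the relations with slide means removed were chosen after seeing the data.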

Additional observations from a re-analysis of the deposited data

Results flagged for a closer look

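Pacsin2 moved in opposite directions on HFD in muscle of the 2 strains in every pair. The mean log2 difference was 0.13 in WT and -0.32 in KO (n = 3 pairs each). The exact permutation test of the difference gave p = 0.1, the smallest possible, and limma an adjusted p = 0.999. The methods' t-test of that difference passed its unadjusted threshold. The share of all probes with such a split was not counted.

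Pacsin2 in WT mice also moved in opposite directions in the 2 tissues in every pair, by -0.35 in the aorta and 0.13 in muscle. The limma test of that difference gave -0.48 ± 0.25 (SE) with an adjusted p = 0.94. The share of all probes with opposite signs in the tissues was not counted either. Groups of 3 arrays were too small for a check for single outlying samples.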

How the results depend on the processing

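No caveolae gene was called for diet or strain under any alternative run, including no replicate block and a replicate block by experiment, where the count was 0 of 7 in both tissues. For aorta against muscle 6 of 7 genes were called, with 4 to 7 under the other settings and 3 to 6 when 1 experiment was left out (3 without experiment 2). Within single conditions, leaving out 1 experiment gave 0 to 1 in WT chow, 0 to 3 in WT HFD, 0 to 1 in KO chow and 0 to 2 in KO HFD. For WT HFD the count was 0 in the deposited table and 0 with no filter, and for KO HFD it was 1 in each of these and 1 after quantile normalization. The mean of all probes of a gene gave 3 in WT chow and 4 in KO HFD, and the replicate block by pool of mice gave 2 and 4. The pools' tissues deviated together with correlations of 0.07 to 0.40, over 0.1 in 9 of 12.

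Small diet values changed sign. In the aorta, Cav1 ran from -0.34 to 0.030 and Cavin1 from -0.27 to 0.045 with 1 experiment left out, and Cavin1 was 0.046 as the mean of its probes and 0.61 on its dimmest tested. In muscle, the ranges were -0.23 to 0.13 for Cav1, -0.17 to 0.37 for its second probe, -0.094 to 0.058 for Cav2 and -0.10 to 0.16 for Cavin1. Muscle Cav1 was 0.077 on its second probe and 0.022 as the mean of both. Muscle Cavin1 was -0.019 after quantile normalization, -0.083 as the mean of its probes, and -0.39 and -0.30 on the 2 dimmest, and muscle Ehd2 was -0.24 on its second probe. The cause was not tested.

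Counts over all probes moved more. For the mean diet response, 8 aortic and 74 muscle probes became 50 and 51 with no replicate block, 57 and 276 with the block by experiment, 55 and 221 after normexp, 41 and 247 among probes above background on every array, 13 and 62 with genes averaged, 5 and 1 with no filter, and 0 and 0 without any 1 experiment. For aorta against muscle, 12622 became 7711 with slide as a random block (correlation 0.28). The number of arrays and the slides, 1 tissue each, limit the comparison.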

Other observations

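Other cell-type lists, of which the cardiac and smooth muscle ones were also used above, differed between the tissues as well. The 5 brown adipocyte genes averaged -0.32 to 3.79 in the aorta and -4.39 to -2.04 in muscle, and Ucp1, the thermogenic uncoupling protein, named after its values were seen, was well above background on 12 of 12 aortic and 2 of 12 muscle arrays. The 7 lymphatic endothelial genes averaged -0.81 to 0.86 in the aorta and -3.83 to -0.13 in muscle. The 7 pericyte genes were the other way, at 1.51 to 2.59 in the aorta and 2.40 to 3.81 in muscle. The 10 smooth muscle genes averaged -0.51 to 0.89 and -0.85 to 1.07, the 8 cardiac genes -3.68 to -0.45 and -5.34 to -3.48, and the 9 macrophage genes -4.37 to -1.48 and -6.07 to 0.11.

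On HFD, the pericyte mean was lower in 6 of 6 muscle pairs, by -0.48 ± 0.27 (SD), and the fibroblast mean higher in 6 of 6, by 1.12 ± 0.71. The part of these cells in the muscle values of the caveolae genes was not tested.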
